A study of Mus musculus with 12 samples.

Results

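The genes described are 10 mouse genes of the actin contractile apparatus, chosen by symbol from the 55487 genes of the raw count table: the actins Acta1 and Acta2, the transgelins Tagln and Tagln2, the calponin Cnn2, the tropomyosins Tpm1, Tpm2 and Tpm4, the myosin light chain Myl9 and the actinin Actn1. All 10 symbols matched 1 Ensembl identifier each. The choice was made with their values with TGFβ and with the construct under TGFβ already known. The difference between the TGFβ effects and the untreated difference between constructs follow from these values. All are given as a description without p-values. The RNA was taken from a conditionally immortalised line of mouse tubular epithelial cells (TEC), the epithelium of the kidney tubule, that carried either a construct for Nnmt (nicotinamide N-methyltransferase) or a mock construct, both selected on puromycin. Some received transforming growth factor β (TGFβ), at a dose of 10 ng/mL over 48 h. The 4 groups of 3 libraries were Nnmt-OE with TGFβ, mock with TGFβ, untreated Nnmt-OE and untreated mock. All groups share the SV40 large T antigen that immortalises the cells, growth at 33 °C with interferon γ, and 7 days at 37 °C without it before the experiment. The promoter of the construct, the number of clones and whether replicates were separate cultures are not stated, so the p-values rest on a spread among libraries that may be technical only.

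In smooth muscle and in myofibroblasts, α-smooth muscle actin filaments slide against myosin and pull on the matrix. Transgelin, calponin and tropomyosin bind along the actin filament, regulatory light chains switch myosin on, and α-actinin cross-links filaments and ties them to adhesions. TGFβ is the best known inducer of this gene programme in culture, and Acta2 is its usual marker in fibrotic kidney. Serum response factor (SRF), which binds the CArG box, and its actin-regulated cofactors of the MRTF family drive many of these genes.

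RefSeq promoters are shown because the motif bound by SRF is the element most often linked to these genes. RefSeq (build GRCm38.p6) gave a promoter for 9 of the 10 genes, all except Tagln, and the 250 bases before the annotated start were searched on both strands for the CArG box, for the CArG box with 1 G or C among its 6 central bases, for CATTCC (the core bound by TEAD factors) and for TATAAA. A match is a description of the letters and not a shown binding site. The 4 promoters with a match to either CArG form follow, 5′ to 3′ on the strand of the gene, with the matches in capitals. They lie at chr8:123894776-123895025 (minus strand) for Acta1, chr19:34255374-34255623 (minus strand) for Acta2, chr10:79988350-79988599 (plus strand) for Cnn2 and chr2:156775214-156775463 (plus strand) for Myl9.
Acta1: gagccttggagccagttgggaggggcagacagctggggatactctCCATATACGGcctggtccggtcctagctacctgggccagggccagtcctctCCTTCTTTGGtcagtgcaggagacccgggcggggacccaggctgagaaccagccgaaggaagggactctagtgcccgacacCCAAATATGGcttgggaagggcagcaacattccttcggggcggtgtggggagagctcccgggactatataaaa
Acta2: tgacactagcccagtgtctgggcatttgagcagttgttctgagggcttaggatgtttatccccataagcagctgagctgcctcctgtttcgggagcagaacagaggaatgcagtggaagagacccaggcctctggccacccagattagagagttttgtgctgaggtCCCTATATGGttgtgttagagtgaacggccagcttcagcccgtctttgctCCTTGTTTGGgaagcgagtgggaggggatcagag
Cnn2: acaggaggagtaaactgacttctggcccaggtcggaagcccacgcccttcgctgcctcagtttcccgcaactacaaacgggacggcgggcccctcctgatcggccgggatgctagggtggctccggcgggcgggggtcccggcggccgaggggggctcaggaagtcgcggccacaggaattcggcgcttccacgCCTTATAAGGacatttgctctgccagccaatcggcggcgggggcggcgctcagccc
Myl9: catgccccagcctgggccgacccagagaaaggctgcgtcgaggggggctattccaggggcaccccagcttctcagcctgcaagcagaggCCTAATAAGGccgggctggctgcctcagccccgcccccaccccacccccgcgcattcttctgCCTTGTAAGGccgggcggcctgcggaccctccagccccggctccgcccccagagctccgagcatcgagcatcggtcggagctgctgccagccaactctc

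The full CArG box was found in 3 of the 9 promoters, those of Acta1 (CCAAATATGG, from 73 bases before the start), Cnn2 (CCTTATAAGG, from 56) and Myl9 (CCTAATAAGG, from 161). Of all 32851 RefSeq mouse promoters of that length, 1.47% hold it. The form with 1 G or C was found in 3 of the 9: at 2 places in Acta1 (CCATATACGG from 205 bases before the start and CCTTCTTTGG from 154), at 2 places in Acta2 (CCCTATATGG from 84 and CCTTGTTTGG from 34) and once in Myl9 (CCTTGTAAGG from 99). Of all promoters 7.24% hold that form, and 8.59% hold either. The promoters of Tagln2, Tpm1, Tpm2, Tpm4 and Actn1, 5 in all, held neither form in these 250 bases. CATTCC or its reverse complement was in 4 of the 9 promoters, those of Acta1, Acta2, Tagln2 (at 2 places) and Tpm1, against 12.6% of all. TATAAA was in 1, that of Acta1, against 12.4% of all. The search forms do not overlap each other in these windows.

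The libraries held 4733846 to 7247413 reads assigned to genes. They count tags near the 3′ end of each messenger, about 1 per transcript, so levels of different genes can be set side by side as counts scaled to a common library size (CPM) without a correction for length. Counting can still miss a gene: Actg1, an actin that every cell uses, averaged under 2 CPM in each group, so a low or 0 count here, also of Epcam and Cdh1, need not mean a low level in the cells. Of 12897 genes that passed the filter on low counts, all 10 described here did, Acta1 and Myl9 in 9 of 12 libraries and the others in all 12. Nnmt itself, which checks the labels, stood at 27.6 ± 5.8 CPM in Nnmt-OE with TGFβ and 30.3 ± 2.8 CPM in mock with TGFβ, and at 25.3 ± 2.9 CPM in untreated Nnmt-OE and 20.3 ± 3.8 CPM in untreated mock (mean ± SD, n = 3). Neither difference passed the test (edgeR adjusted p = 0.998 and 0.897). Tags from a construct that lacks the 3′ end of the native messenger may be missed, which was not tested, and the groups are called labelled Nnmt-OE. Mock replicate 1, mock with TGFβ replicate 3 and labelled Nnmt-OE with TGFβ replicate 3 stood apart on the first 3 principal components (15, 12.8 and 11.7% of the variance). The library codes run in separate blocks for the groups, so handling and group cannot be told apart.

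The cell type label was checked against marker genes. Of 12 tubular epithelial genes 7 passed the filter, with Pax2, Pax8, Lrp2, Cdh16, Krt8 and Aqp1 counted in every library, while Epcam and Cdh1 had 0 reads in all 12. With TGFβ 2 of the 7 fell in each kind of cell and 5 did not pass: Aqp1, a water channel, by 0.66 in labelled Nnmt-OE and by 0.54 in mock on the log2 scale (edgeR adjusted p = 9.52e-07 and 5.72e-05), and Cdh16, a kidney cadherin, by 0.58 and by 0.68 (edgeR adjusted p = 0.0122 and 0.00201). Krt8 went the other way and did not pass, at 85.4 CPM with TGFβ against 69.2 CPM in labelled Nnmt-OE and 82.2 against 60.2 CPM in mock. Values were positive for 3 of the 7 in labelled Nnmt-OE and for 1 in mock. The summed level of the 12 was 1540 to 1695 CPM in labelled Nnmt-OE with TGFβ, 1500 to 1533 CPM in mock with TGFβ, 2015 to 2061 CPM in untreated labelled Nnmt-OE and 1701 to 2004 CPM in untreated mock. The largest part of it was Aqp1, at 599.3 to 1141.5 CPM. Of 10 smooth muscle and pericyte genes 4 passed. Myocd and Rgs5 had 0 reads in all libraries, and Myh11, the smooth muscle myosin heavy chain, had 6 reads over all 12. Their summed level ran from 262.3 to 284.9 CPM in labelled Nnmt-OE with TGFβ, 225.6 to 292 CPM in mock with TGFβ, 214.8 to 262.1 CPM in untreated labelled Nnmt-OE and 216 to 267.9 CPM in untreated mock. Most of it was Smtn, at 177.9 to 243.6 CPM. Of 8 fibroblast genes 3 passed and Col3a1 and Lum had 0 reads, with a summed level of 32.7 to 46.2 CPM in labelled Nnmt-OE with TGFβ, 27.2 to 47.9 CPM in mock with TGFβ, 9.09 to 19.7 CPM in untreated labelled Nnmt-OE and 9.06 to 15.2 CPM in untreated mock. Of these Postn, a matricellular gene, passed with TGFβ in both (log2 1.70 and 1.97). All 4 endothelial genes, 6 of 8 striated muscle genes and 2 of 4 leukocyte genes had 0 reads in all libraries. In each kind of cell the summed levels of the tubular and fibroblast lists did not overlap between TGFβ and untreated libraries, though most of their genes did not pass (2 of 7 and 1 of 3 passed, against 1.4% of all genes in labelled Nnmt-OE and 1.43% in mock). Among all single genes, the TGFβ libraries all lay above the untreated ones for 8.7% in labelled Nnmt-OE and 7.78% in mock. They all lay below for 8.89% and 8.58%. The part of these marker lists in the values below was not tested. In bulk RNA, more cells with a messenger and more messenger per cell cannot be told apart.

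**Figure D1:**
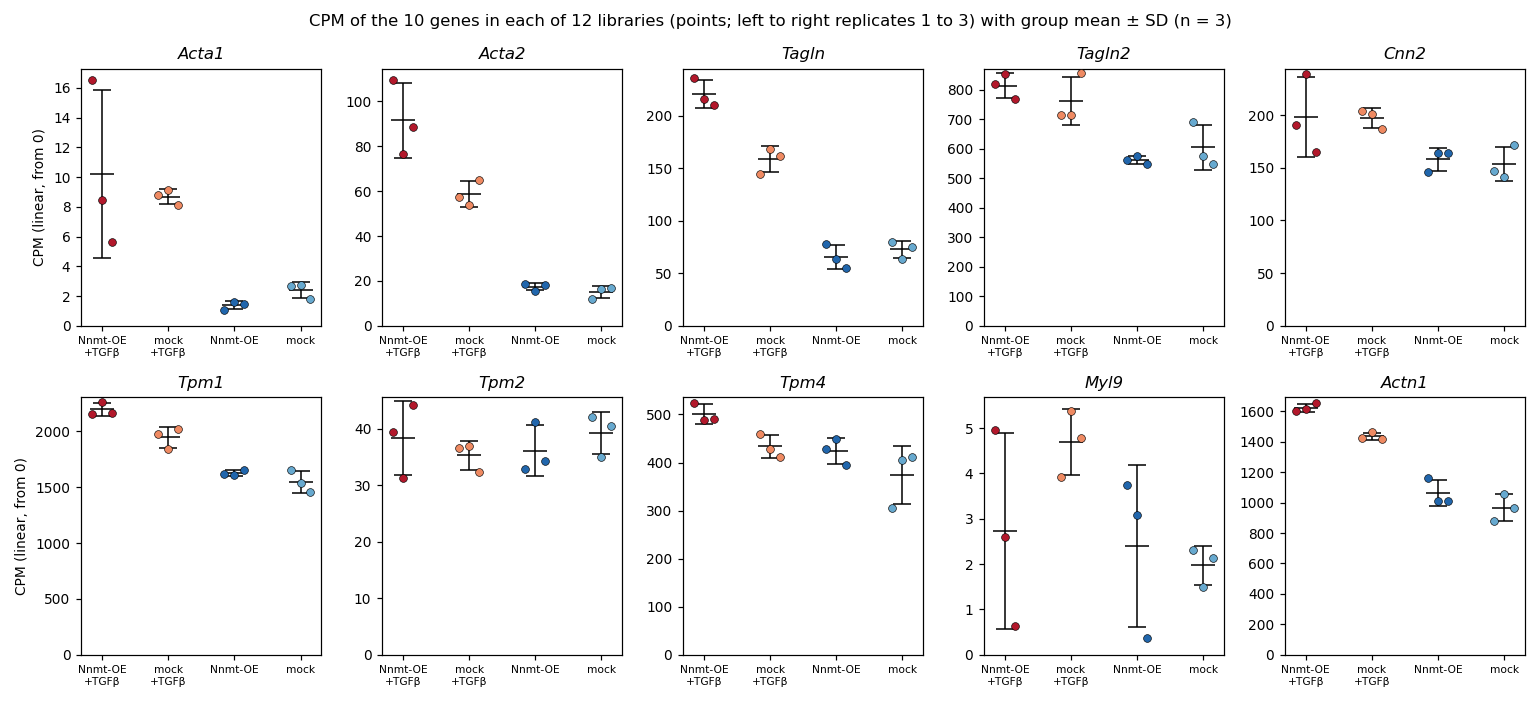
CPM of each gene in each library, on linear axes that start at 0. Points are the 3 libraries of a group, and bars are the mean ± SD (n = 3). Acta2 and Tagln stand highest in labelled Nnmt-OE with TGFβ, next in mock with TGFβ, and the untreated groups overlap, while Tpm2 overlaps between all 4 groups.

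In untreated mock the order was Tpm1 (1547 ± 101 CPM), Actn1 (966 ± 88.4), Tagln2 (604.1 ± 75.4), Tpm4 (373.7 ± 59.7), Cnn2 (153.7 ± 16.1), Tagln (72.9 ± 8), Tpm2 (39.2 ± 3.7), Acta2 (15 ± 2.6), Acta1 (2.41 ± 0.53) and Myl9 (1.97 ± 0.43 CPM; mean ± SD, n = 3). Acta1 and Myl9 overlapped, and no other neighbours did. The order differed with TGFβ in that Acta2 stood above Tpm2 in all 6 libraries that had received it. In labelled Nnmt-OE with TGFβ, Tagln (210.2 to 236 CPM) also reached the range of Cnn2 (165.4 to 239.2 CPM), whereas in mock with TGFβ it lay below, at 145 to 168.8 CPM against 186.5 to 203.7 CPM for Cnn2.

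The first question was how far TGFβ changed these genes in each kind of cell. Both actins and Tagln were more than 2-fold higher with TGFβ in labelled Nnmt-OE and in mock, Tagln2, Tpm1 and Actn1 were higher by 1.26- to 1.53-fold, and Cnn2, Tpm4, Tpm2 and Myl9 did not pass the test in either. By edgeR's quasi-likelihood test, adjusted over all genes, 6 of the 10 were called higher and 0 lower in labelled Nnmt-OE, where 0.651% of all genes were called higher and 0.744% lower, and 6 higher and 0 lower in mock, where the shares were 0.667% and 0.76%. In 8 of the 10 the 3 TGFβ libraries all lay above the 3 untreated ones in labelled Nnmt-OE (8.7% of all genes) and in 9 of the 10 in mock (7.78%), and in 0 all lay below (8.89% and 8.58% of all genes). They were the same 6 genes in each. Since the genes were chosen with these values in view, nothing is read from the counts. Which of the 10 passed with TGFβ, here and gene by gene below, is likewise a description only. The median log2 fold change of the 10 was 0.48 in labelled Nnmt-OE and 0.46 in mock, against medians within 0.01 of 0 over all genes.

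Among the actins, Acta2, α-smooth muscle actin, had 109.7, 76.7 and 88.4 CPM in labelled Nnmt-OE with TGFβ, against 18.4, 15.7 and 18.1 CPM in untreated labelled Nnmt-OE. In mock with TGFβ it had 57.3, 53.7 and 65 CPM, against 12.1, 16.3 and 16.7 CPM in untreated mock. All TGFβ libraries lay above all untreated ones, and the untreated groups overlapped. The fold was 5.27 in labelled Nnmt-OE (95% interval 4.1 to 6.78, log2 2.4 ± 0.18 SE) and 3.9 in mock (3.02 to 5.04, log2 1.96 ± 0.18 SE).

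Acta1, the actin of adult skeletal muscle, had 100, 49 and 27 reads in labelled Nnmt-OE with TGFβ against 6, 11 and 8 in untreated labelled Nnmt-OE, which is 16.5, 8.48 and 5.63 CPM against 1.07, 1.61 and 1.46 CPM. In mock it had 8.83, 9.1 and 8.13 CPM with TGFβ and 2.66, 2.76 and 1.8 CPM without. The treated groups do not overlap the untreated ones, but replicate 1 of labelled Nnmt-OE with TGFβ is far above its own group. The fold was 7.29 in labelled Nnmt-OE (3.56 to 14.9) and 3.61 in mock (1.83 to 7.11). The call in mock was lost without any 1 of the 6 mock libraries or without replicate 1 or 2 of labelled Nnmt-OE with TGFβ, with log2 values of 1.68 to 1.96 over the 12 fits that leave out 1 library, and also without the 3 libraries that stood apart (1.99), in limma-voom (1.87) and in the fit of the mock groups alone (1.85). DESeq2 gave it no adjusted p there.

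The skeletal and smooth muscle α-actins are near-identical in their coding parts, so shared reads were looked for. Of the words of 50 bases in the last 500 bases of the longest coding transcript of each of the 10 genes in GENCODE M21, 0% occur in another gene's transcripts on the same strand. On the opposite strand 13.1% of those of Tagln lie in transcripts of Pcsk7, a proprotein convertase gene, and none of the other 9 share any. Only exact words in 1 transcript a gene were sought. Shorter or inexact matches, and other 3′ ends of a gene, would go unseen, so shared reads are not excluded. Pcsk7 did not pass the test with TGFβ, at log2 -0.20 in labelled Nnmt-OE and -0.11 in mock (edgeR adjusted p = 0.823 and 0.916). How the counting treated strand is not given in the sources used.

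Tagln, transgelin or SM22α, an early smooth muscle marker that binds actin, had 236, 216.5 and 210.2 CPM in labelled Nnmt-OE with TGFβ and 77.9, 63.7 and 54.7 CPM in untreated labelled Nnmt-OE. In mock it had 145, 168.8 and 162.3 CPM with TGFβ and 79.6, 64.1 and 75.2 CPM without. The treated groups lay above the untreated ones and did not overlap each other. The fold was 3.38 in labelled Nnmt-OE (2.84 to 4.01) and 2.17 in mock (1.83 to 2.57).

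Tagln2, the widely expressed transgelin of non-muscle cells, had 818.3, 852 and 769.4 CPM in labelled Nnmt-OE with TGFβ and 563.2, 573.4 and 548 CPM in untreated labelled Nnmt-OE. The mock libraries had 713, 714.8 and 854.9 CPM with TGFβ and 689.6, 575.9 and 547 CPM without. Neither pair overlaps, though in mock the highest untreated library lies close under the treated ones. The fold was 1.45 in labelled Nnmt-OE (1.28 to 1.64) and 1.26 in mock (1.11 to 1.42). The call in mock held in 3 of the 12 fits without 1 library, those without mock replicate 1, mock with TGFβ replicate 1 or untreated labelled Nnmt-OE replicate 2, with log2 values of 0.24 to 0.44 over the 12. It was also lost with a replicate block and in the fit of the mock groups alone, at 0.34 and 0.33.

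Tagln therefore made up a larger part of all transgelin tags with TGFβ: 21.4 ± 1.1% in labelled Nnmt-OE with TGFβ and 10.4 ± 1.6% in untreated labelled Nnmt-OE, and 17.3 ± 1.6% in mock with TGFβ and 10.8 ± 1.1% in untreated mock (SD, n = 3). No TGFβ library overlapped an untreated one in that share. Acta2 made up 1.09 ± 0.24% of counted actin tags in labelled Nnmt-OE with TGFβ and 0.258 ± 0.008% in untreated labelled Nnmt-OE, and 0.726 ± 0.068% in mock with TGFβ and 0.207 ± 0.081% in untreated mock, nearly all the rest being Actb. Actg1, the other actin of every cell, was counted at only 1.99 ± 1.05, 1.38 ± 0.84, 0.70 ± 0.606 and 0.975 ± 0.671 CPM in these 4 groups, so the actin shares hold for counted tags only.

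**Figure D2:**
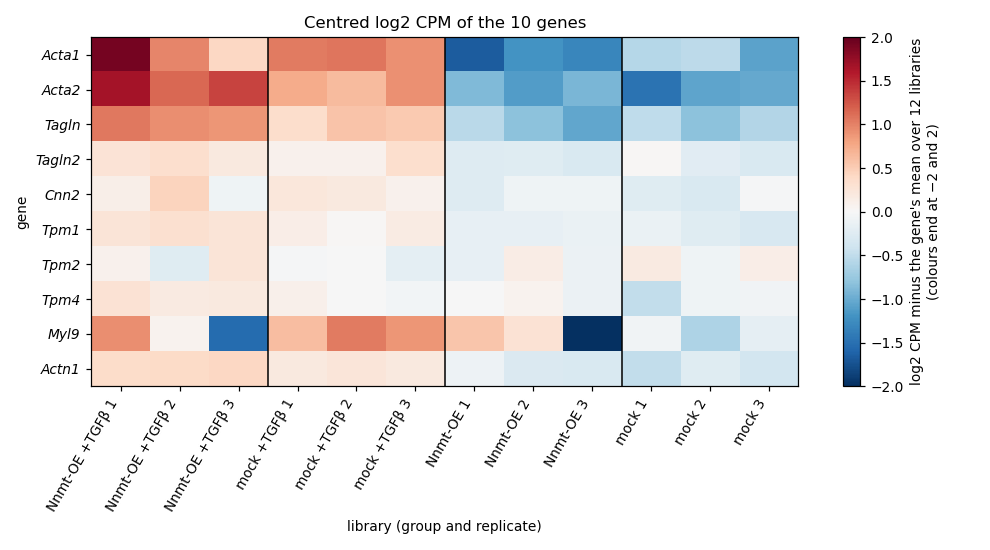
Log2 CPM of each gene in each library minus the gene's mean over the 12 libraries, with colours ending at −2 and 2. Columns are libraries by group, with labelled Nnmt-OE with TGFβ at the left and untreated mock at the right. The rows of Acta1, Acta2 and Tagln separate the TGFβ libraries from the untreated ones, and the row of Myl9 is lowest in replicate 3 of both labelled Nnmt-OE groups.

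Cnn2, the calponin of non-muscle cells, which binds actin and slows myosin, had 190.2, 239.2 and 165.4 CPM in labelled Nnmt-OE with TGFβ and 145.8, 164.3 and 164.4 CPM in untreated labelled Nnmt-OE. In mock it had 203.7, 201.2 and 186.5 CPM with TGFβ and 147.4, 141.7 and 172.1 CPM without. Neither pair overlaps, but in labelled Nnmt-OE the lowest treated library lies just above the highest untreated ones. The fold was 1.25 in labelled Nnmt-OE (1.07 to 1.47) and 1.28 in mock (1.09 to 1.5), and neither passed over all genes. Without the 3 libraries that stood apart it was called in labelled Nnmt-OE, at log2 0.44.

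Tropomyosins lie along the actin filament and set which partners reach it. Tpm1 had 2160, 2263 and 2165 CPM in labelled Nnmt-OE with TGFβ and 1620, 1608 and 1657 CPM in untreated labelled Nnmt-OE. The level in mock was 1975, 1843 and 2024 CPM with TGFβ and 1653, 1534 and 1453 CPM without. In each kind of cell the treated libraries lay above the untreated ones, with a fold of 1.35 in labelled Nnmt-OE (1.22 to 1.49) and 1.26 in mock (1.14 to 1.39). The call in mock ended without mock replicate 3, at log2 0.29, and in the fit of the mock groups alone.

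Tpm4, the tropomyosin of stress fibres in many non-muscle cells, had 524.4, 488.9 and 490.4 CPM in labelled Nnmt-OE with TGFβ and 428.5, 448.9 and 395.2 CPM in untreated labelled Nnmt-OE. Mock libraries had 459.8, 428.5 and 411.7 CPM with TGFβ and 304.8, 405.5 and 410.7 CPM without, where the groups nearly touch. Its folds were 1.18 (1.04 to 1.35) and 1.16 (1.02 to 1.32), and neither passed. Tpm2, the β-tropomyosin of muscle, ran from 31.3 to 44.2 CPM in labelled Nnmt-OE with TGFβ and 32.9 to 41.2 CPM in untreated labelled Nnmt-OE, and from 32.4 to 37 CPM in mock with TGFβ and 35 to 42.1 CPM in untreated mock. Both pairs overlap, with folds of 1.06 (0.824 to 1.36) and 0.90 (0.701 to 1.16). As a description only, each interval lay below the fold of Tagln in the same cells.

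Of all tropomyosin tags, Tpm1 made up 72.8 ± 1.4% in labelled Nnmt-OE with TGFβ and 69.8 ± 1.8% in untreated labelled Nnmt-OE, and 72.4 ± 0.9% in mock with TGFβ and 70.4 ± 3.1% in untreated mock. Tpm2 made up 1.27 ± 0.23% in labelled Nnmt-OE with TGFβ and 1.55 ± 0.17% in untreated labelled Nnmt-OE, and 1.32 ± 0.14% in mock with TGFβ and 1.79 ± 0.19% in untreated mock. The share of Tpm1 was within the spread of libraries in mock.

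Myl9, the regulatory light chain of smooth muscle myosin, rested on the fewest reads, 2 to 39 a library. It had 30, 15 and 3 reads in labelled Nnmt-OE with TGFβ and 21, 21 and 2 in untreated labelled Nnmt-OE. The mock libraries had 28, 39 and 27 reads with TGFβ and 13, 7 and 13 without. The labelled Nnmt-OE groups overlap, with replicate 3 low in both, and the mock groups do not. The fold was 1.14 in labelled Nnmt-OE (0.402 to 3.25) and 2.35 in mock (0.827 to 6.69), and neither passed. With 1 library left out the log2 value in labelled Nnmt-OE ran from -0.55 (without replicate 1 with TGFβ) to 0.65 (without replicate 3 with TGFβ), so its direction is not settled.

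Actn1, the non-muscle α-actinin of stress fibres and adhesions, had 1601, 1615 and 1653 CPM in labelled Nnmt-OE with TGFβ and 1162, 1014 and 1011 CPM in untreated labelled Nnmt-OE. Mock libraries had 1424, 1462 and 1419 CPM with TGFβ and 878.4, 1055 and 964.3 CPM without. The treated libraries of each kind lay close together and far above the untreated ones. The fold was 1.53 in labelled Nnmt-OE (1.37 to 1.7) and 1.49 in mock (1.33 to 1.66). Of Actn1 and Actn4 tags together, Actn1 made up 57.6 ± 0.6% in labelled Nnmt-OE with TGFβ and 50.6 ± 2.4% in untreated labelled Nnmt-OE, and 54.9 ± 0.2% in mock with TGFβ and 48.4 ± 0.6% in untreated mock.

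**Figure D3:**
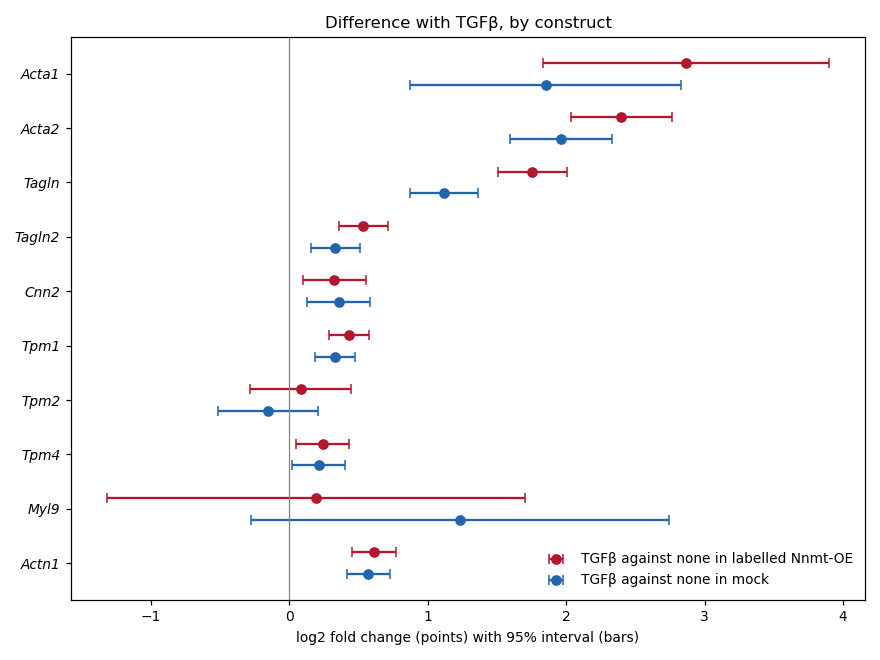
Log2 fold change with TGFβ for each gene, with 95% intervals, in labelled Nnmt-OE (red) and mock (blue) from the fit of all 12 libraries. The points of Acta1, Acta2 and Tagln lie between 1.12 and 2.87, and those of the other genes, Myl9 in mock apart, lie between −0.15 and 0.61.

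The difference between the TGFβ effects in the 2 kinds of cells was fitted over all genes as an interaction, the log2 effect in labelled Nnmt-OE minus that in mock. By edgeR 0 of the 10 genes and 0 of 12897 passed (0% called), with 501 of all genes at an unadjusted p under 0.05, and DESeq2 and limma-voom called 0 as well. The difference was 0.64 for Tagln (95% interval 0.29 to 0.98), 0.44 for Acta2 (-0.08 to 0.95) and 1.01 for Acta1 (-0.40 to 2.43). Over the alternatives that of Tagln ran from 0.52 to 0.78, that of Acta2 from 0.28 to 0.68 and that of Acta1 from 0.48 to 1.30. The other 7 lay between -1.04 (Myl9, -3.17 to 1.09) and 0.23 (Tpm2, -0.28 to 0.75). For Actn1 and Tpm1 the intervals were narrow, at 0.04 (-0.18 to 0.26) and 0.10 (-0.11 to 0.30). For Myl9 it ran from -1.79 to -0.59 with 1 library left out. These differences are made of the values that were in view when the genes were chosen, and nothing is read from them.

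The construct was then compared within each treatment. With TGFβ, labelled Nnmt-OE had higher values than mock for 9 of the 10 genes, and for Acta2, Tagln, Tpm1, Tpm4 and Actn1 the 3 labelled Nnmt-OE libraries all lay above the 3 mock libraries. That is 5 of 10, while 5.27% of all genes show it, and in 0 of 10 did they all lie below (4.95% of all genes). The genes were chosen with this contrast in view, and nothing is read from the counts. The direction turned for Acta1 without labelled Nnmt-OE with TGFβ replicate 1 (log2 0.24, and -0.30 without it), for Cnn2 without replicate 2 of that group (0.01 and -0.15), without mock with TGFβ replicate 3 (-0.03) and in limma-voom, and for Tpm2 without the 3 libraries that stood apart (0.12 and -0.05). Acta2 averaged 91.6 ± 16.8 CPM in labelled Nnmt-OE with TGFβ and 58.7 ± 5.8 CPM in mock with TGFβ, a fold of 1.56 (95% interval 1.24 to 1.97). Tagln averaged 220.9 ± 13.5 CPM in labelled Nnmt-OE with TGFβ and 158.7 ± 12.3 CPM in mock with TGFβ, a fold of 1.39 (1.18 to 1.64). For Tpm4, Actn1 and Tpm1 the folds were 1.16, 1.13 and 1.13. By edgeR 0 of the 10 passed over all genes, where 0.0233% did, 575 of 12897 genes had an unadjusted p under 0.05, and DESeq2 and limma-voom called 0 of the 10. This contrast shares the labelled Nnmt-OE libraries with the TGFβ effect in those cells, so they are not separate evidence.

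Without TGFβ 0 of the 10 genes differed past the test. Acta2 averaged 17.4 ± 1.5 CPM in labelled Nnmt-OE and 15 ± 2.6 CPM in mock (log2 0.21, 95% interval -0.18 to 0.60). Tagln averaged 65.4 ± 11.7 CPM in labelled Nnmt-OE and 72.9 ± 8 CPM in mock (log2 -0.16, -0.41 to 0.09). Values were positive for 6 of the 10 and negative for 4. Of all genes 0.0388% passed by edgeR. The untreated difference follows from the values in view when the genes were chosen, so nothing is read from the calls. By edgeR none of the 10 had an unadjusted p under 0.05, while 753 of all 12897 genes did, and nothing is read from that count. DESeq2 and limma-voom also called 0 of the 10. Acta1 was the 1 gene whose 3 labelled Nnmt-OE libraries lay below the 3 mock libraries, at 1.07 to 1.61 CPM against 1.8 to 2.76 CPM (log2 -0.77, -1.88 to 0.33), which 5.29% of all genes show, and in 0 of 10 did they all lie above (5.64%). For Tpm1 the 95% interval of the fold was 0.952 to 1.16.

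**Figure D4:**
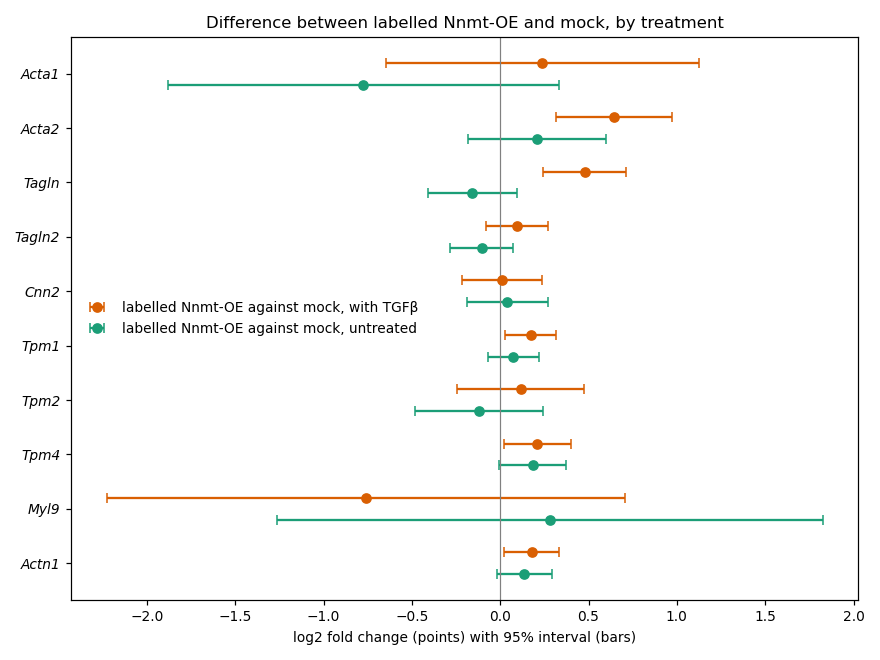
Log2 fold change between labelled Nnmt-OE and mock for each gene, with 95% intervals, with TGFβ (orange) and untreated (green). With TGFβ, Acta2 is at 0.64 and Tagln at 0.48, with intervals above 0 that are not adjusted for the number of genes, and every untreated interval includes 0.

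Other genes of the contractile apparatus were taken from 6 lists, 103 genes without the 10, of which 69 were tested. In labelled Nnmt-OE with TGFβ 3 were higher and 1 lower, 65 did not pass, and the median log2 fold change was 0.14. In mock 3 were higher and 1 lower, 65 did not pass, and the median was 0.06, against 1.4 and 1.43% of all genes called in either direction and medians of 0.00 over all genes. The fitted medians did not move when genes at 0 in a group were set to the bound that 3 counts over the group allow. They could not have moved, as the genes so set, Ldb3 and Actg2, stayed above the medians. Between labelled Nnmt-OE and mock 0 of the 69 passed by edgeR, with TGFβ or without, and 0 in the interaction. The smallest p between constructs were those of Ppp1r14b, at 0.67 untreated (edgeR adjusted p = 0.42), and Fos, at 1.51 untreated (edgeR adjusted p = 0.782).

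Of 10 tested paralogs of the described genes, 0 passed in either kind of cell, with medians of 0.24 in labelled Nnmt-OE and 0.17 in mock. Actb, the main cytoplasmic actin, had a log2 fold change of 0.32 in labelled Nnmt-OE and 0.04 in mock (edgeR adjusted p = 0.662 and 0.969), Myl12a, a regulatory light chain, of 0.28 and 0.04 (0.0904 in labelled Nnmt-OE), Tpm3 of 0.20 and 0.21, Actn4 of 0.21 and 0.20, and the smooth muscle calponin gene Cnn1 of 0.38 and 0.23. Cnn1 stood at 44.4 ± 3.3 CPM in labelled Nnmt-OE with TGFβ and 34.1 ± 3.2 CPM without, and at 38.5 ± 5.7 CPM in mock with TGFβ and 32.8 ± 6.2 CPM without.

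Of 16 non-muscle myosin genes and regulators, 0 were higher and 1 lower in labelled Nnmt-OE, and 1 was higher and 1 lower in mock (medians 0.09 and 0.02). Mylk, the kinase that activates myosin light chains, fell in both. It stood at 238.9 ± 15.5 CPM in labelled Nnmt-OE with TGFβ and 348.9 ± 21 CPM in untreated labelled Nnmt-OE (log2 -0.55 ± 0.09, edgeR adjusted p = 0.000307), and at 254.5 ± 25.1 CPM in mock with TGFβ and 406.5 ± 32.4 CPM in untreated mock (log2 -0.68 ± 0.09, edgeR adjusted p = 9e-06). Ppp1r14b, an inhibitor of the phosphatase that opposes this kinase, rose in mock by 0.63 ± 0.17 (edgeR adjusted p = 0.0387) and stood at 0.08 in labelled Nnmt-OE (edgeR adjusted p = 0.921). That difference between the cells did not pass (interaction -0.56 ± 0.23, edgeR adjusted p = 0.999). Myh9, the main non-muscle myosin heavy chain gene, stood at 0.13 in labelled Nnmt-OE and 0.17 in mock and did not pass.

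Of 26 cross-linker and focal adhesion genes, 2 rose in labelled Nnmt-OE and 0 in mock (medians 0.14 and 0.06). Csrp1, a LIM protein that binds actinin, rose by 0.66 ± 0.15 in labelled Nnmt-OE and stood at 0.41 in mock (edgeR adjusted p = 0.00942 and 0.192). Pdlim7, a PDZ and LIM protein of stress fibres, rose by 0.52 ± 0.12 and stood at 0.33 in mock (edgeR adjusted p = 0.00954 and 0.187). Their interactions were 0.25 and 0.19 (edgeR adjusted p = 0.999 each). Fhl2 and Vcl (vinculin), with the smallest p in mock, stood at 0.50 and 0.31 there (edgeR adjusted p = 0.0799 and 0.176).

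Of 8 tested genes for SRF and its partners 0 passed in either kind of cell, with medians of 0.06 in labelled Nnmt-OE and -0.13 in mock. Srf stood at 0.29 in labelled Nnmt-OE and -0.12 in mock (edgeR adjusted p = 0.722 and 0.909), and Mrtfb, an MRTF cofactor, at -0.18 and -0.21. The smallest p in labelled Nnmt-OE were those of Fos, an immediate early gene, at -1.45 (edgeR adjusted p = 0.121), and of Tead1 at 0.21 (0.415), and in mock those of Mrtfb (0.57) and Elk1, at -0.29 (0.671). Of 6 tested genes of smooth muscle differentiation, 0 passed in labelled Nnmt-OE, where Smtn (0.21) and Smtnl2 (0.33) had the smallest p (edgeR adjusted p = 0.467 and 0.698), and 1 in mock (medians 0.10 and 0.09). That was Ldb3, a Z-disc gene, with 11, 17 and 16 reads in mock with TGFβ and 0 in each untreated mock library, at least 12-fold higher against a floor of 3 counts over the group. It had 2, 15 and 7 reads in labelled Nnmt-OE with TGFβ and 6, 2 and 2 in untreated labelled Nnmt-OE. Of 18 sarcomere genes 3 were tested, and Tnnt2, cardiac troponin T, rose in both, to 34.4 ± 4.4 CPM in labelled Nnmt-OE with TGFβ against 19.4 ± 1.4 CPM without (edgeR adjusted p = 0.0285) and to 36.7 ± 2 CPM in mock with TGFβ against 15.8 ± 3.2 CPM without (edgeR adjusted p = 0.000399).

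**Figure D5:**
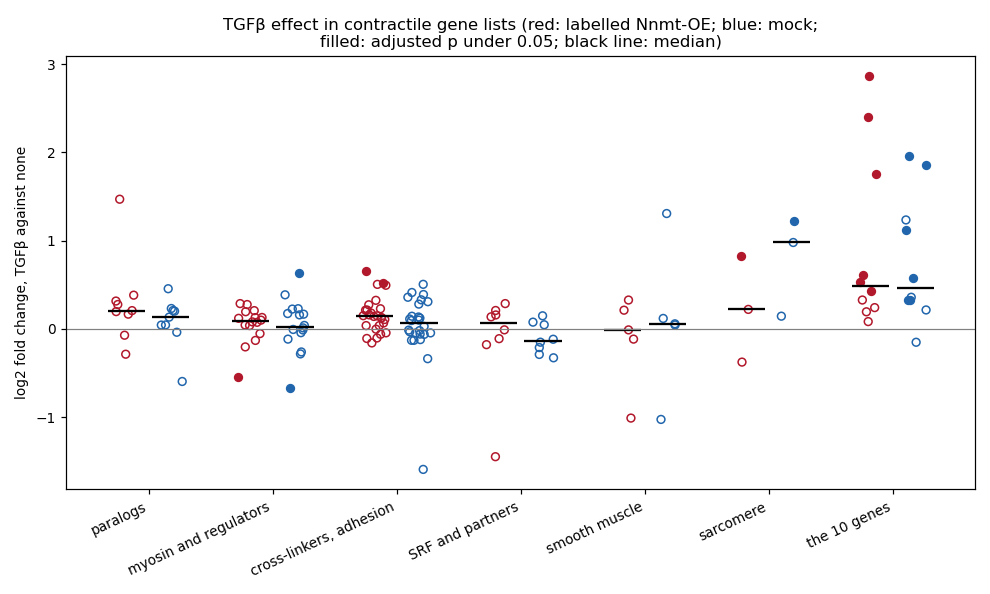
Log2 fold change with TGFβ of each tested gene in the 6 lists and of the 10 genes, in labelled Nnmt-OE (red) and mock (blue). Filled points have an adjusted p under 0.05 and black lines are medians of the genes drawn. Ldb3 and Actg2, which had 0 reads in all libraries of a group, are not drawn, so these medians can differ from those over all tested genes. Mylk is the lowest filled point of each colour, at -0.55 and -0.68.

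The genes whose pattern was most like that of Acta2 were found from the root mean square distance between log2 CPM centred on each gene's mean over the 12 libraries. Among the 5 nearest genes outside the 10, Postn lay at 0.42 log2 units, and of the 10 themselves Tagln lay at 0.44 and Acta1 at 0.51. Dhx58, Cpne8 and Gm24876 followed at 0.53, 0.58 and 0.58. Dhx58 and Gm24876 did not pass the test with TGFβ. For Tagln the 5 nearest included Cpne8 (0.26), Cyp1b1 (0.29), Sorbs2 (0.33) and Pmepa1 (0.34). Of the other described genes, Acta2 ranked 27th closest to Tagln, Actn1 35th and Tagln2 100th, while Tpm2 and Myl9 ranked 4643rd and 9842nd of 12897.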

How the data were processed

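The samples were 12 QuantSeq 3′ forward libraries made from 100 ng of RNA each. The deposited table holds the authors' raw read counts for each gene, 1 column a library, matched to samples by the library code in the labels. The submitters' processing notes name STAR, HTSeq and the human build GRCh38, while the identifiers are mouse. Tool versions, mouse annotation and strandedness of counting: not given in the sources used here. The 5 HTSeq totals were left out (26.4 to 28.79% of reads assigned to no feature, 0.6 to 0.68% ambiguous). Symbols came from GENCODE M21 and matched 55141 of 55487 identifiers.

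A single model with 4 group means was fitted to the 12 libraries in edgeR 4.0.16 (R 4.3.3), after filterByExpr (minimum count 10, total 15; 12897 genes kept) and TMM scaling. Its robust quasi-likelihood test was used, with p adjusted over all genes by Benjamini-Hochberg and called at 0.05. CPM use TMM-scaled library sizes, and intervals are 95% intervals of the fit, not adjusted for the number of genes. Alternatives were RLE scaling, DESeq2 1.42.0, limma-voom (limma 3.58.1), no filter, a stricter filter (1 CPM in 3 libraries, 50 counts), a replicate block, each library left out, the groups compared alone, and the 3 libraries that stand apart left out. Counts are of reads, not molecules.

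The 10 genes, the lists, and the comparisons were chosen with earlier results of these data known. Within the lists, genes were named by a rule: up to 4 called genes per list and comparison with the smallest p, or up to 2 where none passed. Genes called in 0 comparisons are named for TGFβ, and between constructs only the smallest 2 over all lists are. Actb, Cnn1, Myh9, Srf, Pcsk7 and the marker genes were named outside the rule, after their values were seen. Of the genes nearest in pattern, 1 is not reported here.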

Additional observations from a re-analysis of the deposited data

How the results depend on the processing

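Of the 10 genes, 6 were called with TGFβ in labelled Nnmt-OE under every alternative except 1. That was the fit without the 3 outlying libraries, which gave 7, with 260 of all tested genes called. Between constructs or in the interaction 0 of the 10 were called under any. In mock the count of 6 was 3 in the fit of the groups compared alone and ran from 3 (without mock replicate 3) to 6 with 1 library left out. The genes were chosen with the TGFβ values in view, so nothing is read from these counts with TGFβ. No called value changed sign. Values near 0 did: with 1 library left out, the log2 TGFβ effect in labelled Nnmt-OE ran from -0.55 to 0.65 for Myl9 and -0.0237 to 0.208 for Tpm2. The difference between constructs ran, with TGFβ, from -0.30 to 0.53 for Acta1 and -0.15 to 0.12 for Cnn2, and untreated from -0.0138 to 0.132 for Cnn2 and -0.17 to 0.78 for Myl9. The interaction ran from -0.192 to 0.0868 for Cnn2, -0.0511 to 0.154 for Tpm4 and -0.0298 to 0.109 for Actn1. Without the 3 outlying libraries Tpm2 turned to -0.0276 with TGFβ in labelled Nnmt-OE and to -0.0543 between constructs with TGFβ, and the interaction of Cnn2 to 0.076. In limma-voom the construct difference turned to -0.00329 for Cnn2 with TGFβ and -0.15 for Myl9 untreated. With TGFβ in labelled Nnmt-OE 180 genes of all tested were called, 295 by DESeq2, 351 in the groups alone, and 97 to 305 with 1 library left out (305 without mock replicate 1, and 97 to 109 without untreated labelled Nnmt-OE replicate 1 or 3 or any labelled Nnmt-OE library with TGFβ). In mock 184 were called, 306 by DESeq2 and 92 in the groups alone, and 98 to 188 with 1 library left out (115 and 98 without mock with TGFβ replicates 1 and 2). Between constructs the count was 3 with TGFβ (1 to 3 with 1 library left out, 1 without replicate 2 or 3 of mock or 1 or 2 of labelled Nnmt-OE with TGFβ) and 5 untreated (13 with no filter, 3 in the groups alone, 3 to 6 with 1 library left out, 3 without mock replicate 3 or labelled Nnmt-OE replicate 1). The cause of these shifts was not tested. Same-numbered libraries showed no clear likeness over all genes: none of 18 correlations of their deviations from the group means was over 0.1 (-0.10 to 0.05). Whether they were handled together is not given, and a small shared effect could go unseen. With a replicate block, 168 genes were called with TGFβ in labelled Nnmt-OE and 170 in mock, with 6 and 5 of the 10 among them; the call lost in mock was that of Tagln2. Errors were widest for Myl9 and Acta1, the 2 genes with the fewest reads. For genes at 10 CPM or above, the median 95% interval on the log2 scale reached 0.35 to either side.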

Other observations

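Actg2, the enteric smooth muscle actin, had 11, 5 and 3 reads in labelled Nnmt-OE with TGFβ against 0 in each untreated labelled Nnmt-OE library, and 20, 24 and 1 in mock with TGFβ against 7, 0 and 0 in untreated mock. It did not pass the edgeR test in labelled Nnmt-OE (adjusted p = 0.189) or in mock (adjusted p = 0.502). Actc1, the cardiac actin, had 0 reads in all 12 libraries. Tnni2, a fast skeletal troponin, stood at 10.2 ± 3.8 CPM in labelled Nnmt-OE with TGFβ and 8.77 ± 3.54 CPM in untreated labelled Nnmt-OE (edgeR adjusted p = 0.891), and at 13.8 ± 2.4 CPM in mock with TGFβ and 6.96 ± 1.07 CPM in untreated mock (edgeR adjusted p = 0.197). These genes were chosen for mention after their values were seen.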
